A study of Mus musculus with 30 samples.

Results

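The 10 genes described here are transcriptional targets of the tumour suppressor p53: Cdkn1a, Mdm2, Ccng1, Bax, Phlda3, Trp53inp1, Gadd45a, Gadd45b, Btg2 and Sesn2. They were measured in mouse liver on 2-colour arrays. Their probes were found by transcript accession, which gave 16 of the 41174 probes on the array. Each of the 16 passed the filter on dim probes, as did 23607 probes in all, so no member was lost. Ccng1, Gadd45b, Mdm2 and Trp53inp1 had 2 probes each, Btg2 had 3 and the other genes had 1. Each gene is described by its probe with the highest mean liver signal, and its other probes are set beside it. The members are 10 of 12225 named genes tested.

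All mice were female C57BL/6 from Taconic, bought at 5 to 6 weeks of age, and no engineered allele is named. The 14 exposed mice received 0.162 mg of Printex 90 through the trachea. Printex 90 is a nanoparticle form of carbon black, given here in saline that held cell-free lavage fluid of the same strain. The 16 control mice are labelled as having received no treatment, and the labels do not say whether they were given the vehicle. No time after instillation is given in the labels used here, and the series text speaks of 6 mice in each group, although 14 and 16 arrays are described here. In each group the animal numbers form 3 runs of neighbouring numbers, called runs 1, 2 and 3 here. The exposed runs held 4, 5 and 5 mice and the control runs 6, 5 and 5, and no label says what a run stands for. On each array the Cy5 dye marked liver RNA of 1 mouse, and Cy3 marked a commercial reference RNA. A value is the log2 ratio of Cy5 over Cy3 after correction, and it says how a liver stands against that reference, not how abundant one gene is against another. The study asked how liver transcripts stand after carbon black reaches the airways. DNA strand break measurements were not analysed here.

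The protein p53 is kept scarce in unstressed cells, because the ubiquitin ligase Mdm2 marks it for degradation. DNA breaks and other stresses activate kinases that free p53, which then binds as a tetramer to pairs of short half-sites near its targets and raises their transcription. The targets halt the cell cycle, feed back on p53, prepare repair or start cell death. Several of them also answer to other inputs in liver, among them immediate early and glucocorticoid signals for Gadd45b and Btg2 and the amino acid response for Sesn2.

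Promoter windows of 250 bases before and 50 bases after the start site were taken from RefSeq (GRCm38.p6) for 9 of the 10 genes, giving 10 windows since Cdkn1a has 2. Trp53inp1 had none. Both strands were searched for the p53 half-site, the E-box CACGTG, the cAMP response element TGACGTCA, the AP-1 site TGANTCA, the CArG box and the NF-kB site. The p53 half-site stood in 5 of the 10 windows (Cdkn1a, Ccng1, Gadd45a, Mdm2 and Bax), against 8.36% of all 32841 windows. In the first Cdkn1a window 2 half-sites began 73 and 51 bases upstream of the start site, with 12 bases between them. The second Cdkn1a window had no match. Only exact matches were counted, so half-sites that differ by a base are not marked in any window. Such a stretch, tgacatgttc, follows directly on the second marked half-site of the first Cdkn1a window. The E-box occurred in the windows of Bax and Gadd45b, against 7.15% of all windows, and the cAMP response element in that of Btg2, against 1.79%. The AP-1 site (7.81% of all windows), the CArG box (1.63%) and the NF-kB site (8.46%) had no match in the members' windows. No match overlapped another. A match describes the letters of a window and is not a measured binding site. The windows of 4 genes are shown because these genes carry the results below: Cdkn1a as the textbook p53 target, Bax as the gene with the smallest p within slides, and Gadd45b and Btg2 as a pair that varied together. Capitals mark the matches.
Cdkn1a, chr17:29090729-29091028, plus strand: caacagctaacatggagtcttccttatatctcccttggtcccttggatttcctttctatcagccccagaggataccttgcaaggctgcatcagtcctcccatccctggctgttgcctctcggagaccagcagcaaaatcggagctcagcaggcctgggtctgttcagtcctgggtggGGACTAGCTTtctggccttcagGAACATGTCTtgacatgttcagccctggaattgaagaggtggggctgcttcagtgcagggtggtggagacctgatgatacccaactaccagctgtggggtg
Bax, chr7:45466849-45467148, minus strand: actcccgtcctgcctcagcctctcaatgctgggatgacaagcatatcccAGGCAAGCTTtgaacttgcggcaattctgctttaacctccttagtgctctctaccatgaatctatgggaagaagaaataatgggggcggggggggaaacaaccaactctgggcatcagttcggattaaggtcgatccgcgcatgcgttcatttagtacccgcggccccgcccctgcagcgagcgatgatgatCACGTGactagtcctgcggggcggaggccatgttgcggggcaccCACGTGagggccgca
Gadd45b, chr10:80929841-80930140, plus strand: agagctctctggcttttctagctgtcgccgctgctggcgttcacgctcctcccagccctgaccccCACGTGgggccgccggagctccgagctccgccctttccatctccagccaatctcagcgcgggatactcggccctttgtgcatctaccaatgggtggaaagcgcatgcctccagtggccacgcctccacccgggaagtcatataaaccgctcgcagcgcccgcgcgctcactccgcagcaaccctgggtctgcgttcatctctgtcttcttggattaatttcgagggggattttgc
Btg2, chr1:134079106-134079405, minus strand: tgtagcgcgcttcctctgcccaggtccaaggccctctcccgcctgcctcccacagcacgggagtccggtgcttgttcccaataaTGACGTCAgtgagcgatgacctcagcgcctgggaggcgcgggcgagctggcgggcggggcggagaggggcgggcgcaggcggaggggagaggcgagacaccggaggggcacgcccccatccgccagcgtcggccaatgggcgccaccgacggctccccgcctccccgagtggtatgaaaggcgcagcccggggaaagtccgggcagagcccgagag

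The median Cy3 signal per array lay between 55 and 97 in exposed mice and between 43 and 113 in control mice. The share of probes well above the Cy5 background ran from 50.02% to 69.1% in exposed mice and from 42.8% to 79.2% in control mice. Precision is limited by how many arrays there are. The 30 arrays lay on 9 slides, of which 7 held both groups. Control mice always lay on positions 1 and 2 of a slide and exposed mice on positions 3 and 4, so position and group cannot be told apart. The tissue matched its label: the 6 tested hepatocyte markers averaged 5.60 ± 0.33 (log2) over the reference in exposed livers and 5.72 ± 0.43 in control livers (SD, n = 14 and 16). In bulk liver, fewer cells of a type and less RNA per cell cannot be told apart.

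None of the 10 p53 targets differed between exposed and control livers past an adjusted p of 0.05 (limma with slide as a random block, Benjamini-Hochberg over all tested probes). Across the array 0.0169% of tested probes and 0.0164% of named genes were called. Unadjusted p fell under 0.05 for 2 of the 10, Trp53inp1 and Gadd45b, against 12.3% of all named genes. The difference of the exposed from the control mean was above 0 for 7 of the 10 members, with a median of 0.07, and for 49.6% of all named genes, with a median of -0.00076. Cdkn1a, Mdm2 and Btg2 were the 3 with differences below 0.

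The genes that hold the cell cycle come first. Cdkn1a encodes an inhibitor of cyclin-dependent kinases and is the best known p53 target. Its lowest, median and highest log2 ratios were -2.64, -2.03 and -1.15 in exposed livers, against -2.65, -2.08 and -0.10 in control livers. The ranges overlapped completely, and the highest value belonged to control mouse 573. The difference was -0.03 ± 0.18 on the log2 scale (SE; 95% interval -0.39 to 0.34; limma adjusted p = 0.971). Without mouse 573 it was 0.11 (adjusted p = 0.794). The interval allows a level between 0.762 and 1.26 times that of control livers.

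Ccng1 encodes cyclin G, which brings a phosphatase to Mdm2. It ranged from -0.32 through a median of -0.21 to 0.015 in exposed livers, against -0.48, -0.25 and 0.10 in control livers. It was among the members with little spread, and its groups overlapped fully. Exposed livers stood 0.05 ± 0.05 above control livers (interval -0.05 to 0.16; limma adjusted p = 0.744), and the second probe gave -0.06 ± 0.05. The 2 probes thus disagreed in sign.

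Btg2 encodes an antiproliferative protein that works with the deadenylase that shortens messenger RNA tails. Its lowest, median and highest values were -1.55, -0.73 and -0.0064 in exposed livers and -1.47, -0.61 and 0.59 in control livers. Only 5 of 14 exposed livers lay above the control median. The 3 probes gave differences of -0.05 ± 0.15, -0.03 ± 0.15 and -0.03 ± 0.12 (limma adjusted p from 0.929 to 0.960).

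The Gadd45 proteins are small stress sensors that bind the replication clamp and stress kinases. Gadd45a ranged over -1.97, -1.27 and -0.75 (lowest, median and highest) in exposed livers, against -1.97, -1.29 and -0.57 in control livers. The groups nearly coincided, at a difference of 0.04 ± 0.13 (interval -0.22 to 0.30; limma adjusted p = 0.940). Gadd45b covered a far wider range, with -2.84, -0.82 and 0.53 in exposed livers and -2.66, -1.40 and 0.29 in control livers. Of the 14 exposed livers, 12 lay above the control median, 1 above the control maximum and 1 below the control minimum. Its difference was the largest of the members at 0.63 ± 0.29, or 1.55-fold (fold interval 1.04 to 2.32; unadjusted p = 0.0340, limma adjusted p = 0.367). The second Gadd45b probe gave 0.38 ± 0.20 (adjusted p = 0.437). Over the 48 alternatives with a value the difference by the first Gadd45b probe stayed between 0.51 and 0.85, without passing in any (smallest adjusted p = 0.188).

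Mdm2, the negative feedback on p53, varied least. Its lowest, median and highest log2 ratios were -1.41, -1.24 and -1.11 in exposed livers, against -1.35, -1.21 and -1.06 in control livers. The exposed values lay slightly lower and 3 of 14 fell below the control minimum. The difference was -0.03 ± 0.04 (interval -0.11 to 0.05; limma adjusted p = 0.797), and the second probe, printed in 10 spots, gave 0.05 ± 0.04 (adjusted p = 0.695). Its narrow interval allows a level between 0.925 and 1.03 times that of control livers by the first probe.

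Bax encodes a protein that opens the outer mitochondrial membrane in apoptosis. It stood at -0.87, -0.63 and -0.47 (lowest, median and highest) in exposed livers and at -1.10, -0.73 and -0.45 in control livers. No exposed liver lay outside the control range, while 9 of 14 lay above the control median. The difference was 0.10 ± 0.05, or 1.07-fold (log2 interval -0.0086 to 0.21; limma adjusted p = 0.458).

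Phlda3, whose product competes with the survival kinase Akt for membrane lipid, ranged over -3.27, -2.67 and -2.13 in exposed livers, against -3.60, -2.70 and -2.32 in control livers. The groups overlapped widely, and 7 of 14 exposed livers exceeded the control median. Exposed livers stood 0.13 ± 0.10 higher (interval -0.08 to 0.34; limma adjusted p = 0.649).

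Trp53inp1 encodes a stress protein that promotes p53 activity in the nucleus and autophagy in the cytoplasm. Its lowest, median and highest values were 1.06, 1.54 and 2.14 in exposed livers and 0.63, 1.22 and 2.29 in control livers. All exposed values lay within the control range, and 12 of 14 lay above the control median. The difference was 0.35 ± 0.14, or 1.27-fold (fold interval 1.04 to 1.55; unadjusted p = 0.0195, limma adjusted p = 0.306). Its second probe gave 0.37 ± 0.15 (adjusted p = 0.319). Over 49 alternatives the difference by the first probe lay between 0.23 and 0.49, and the smallest adjusted p was 0.122.

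Sesn2 encodes a sestrin, a leucine sensor that restrains the growth kinase mTOR. It stood at -0.50, -0.17 and 0.21 (lowest, median and highest) in exposed livers and at -0.75, -0.26 and 0.011 in control livers. Here 5 of 14 exposed livers exceeded the highest control liver, the largest such number among the members. Livers outside the control range were counted for the members only, so no share over all genes is given. The difference was 0.12 ± 0.07, or 1.09-fold (log2 interval -0.02 to 0.27; limma adjusted p = 0.479). The dyes taken singly both stood lower in exposed mice. The Cy3 signal of Sesn2, which holds the same reference RNA on every array, differed by -0.18 ± 0.07 (unadjusted p = 0.0142, limma adjusted p = 0.876), and its Cy5 signal, the liver RNA, by -0.05 ± 0.08 (adjusted p = 0.886). Neither dye difference passed, and the part of each dye in the difference of the ratio was not tested.

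**Figure D1:**
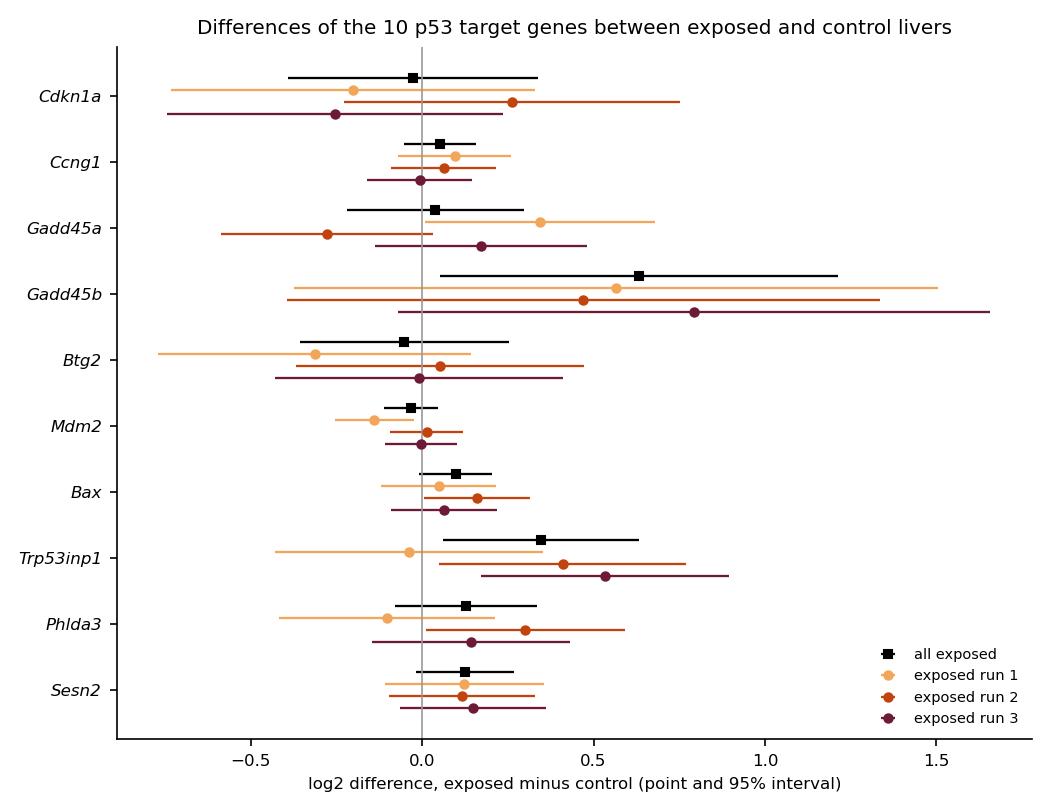
Log2 difference of each p53 target between exposed and control livers (x axis, with 95% interval), for all exposed mice (black squares) and for each exposed run against the mean of the 3 control runs (circles). The intervals of Gadd45b are the widest and those of Mdm2 the narrowest, and the value of Trp53inp1 is -0.04 in run 1, 0.41 in run 2 and 0.53 in run 3.

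Within the 7 slides that held both groups, the exposed mean exceeded the control mean on 6 slides for Trp53inp1, on 5 each for Gadd45b, Bax, Sesn2 and Ccng1, on 4 each for Cdkn1a, Gadd45a, Btg2 and Mdm2, and on 3 for Phlda3. The lowest, median and highest within-slide differences of Trp53inp1 were -0.0097, 0.37 and 0.74. Those of Gadd45b were -0.76, 0.39 and 1.95, a spread wider than that of any other member. Bax differed by between -0.05 and 0.21, with a median of 0.13. An exact permutation test of group labels within slides (two-sided, 69984 arrangements) gave unadjusted p = 0.0385 for Bax, 0.0676 for Sesn2, 0.0878 for Gadd45b and 0.0921 for Trp53inp1, and above 0.2 for the other 6. These p are unadjusted, and the test was run on the members only, so no share over all genes stands beside them.

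**Figure D2:**
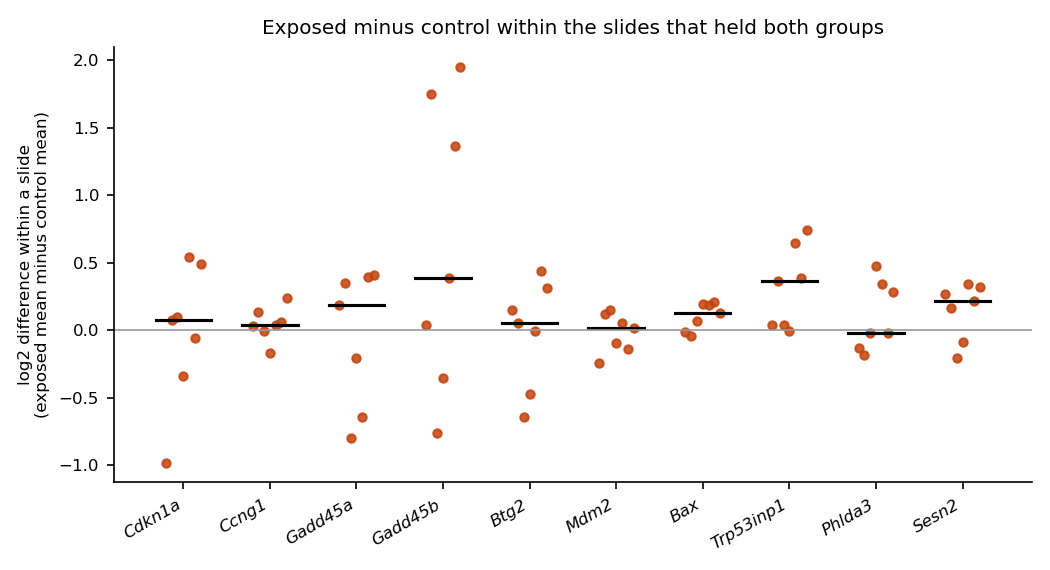
Exposed mean minus control mean of each p53 target on each of the 7 slides that held both groups (points, log2), with the median as a bar. Trp53inp1 lies above 0 on 6 slides, and the points of Gadd45b run from -0.76 to 1.95.

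The dyes were also compared separately. In the liver dye Trp53inp1 stood 0.49 ± 0.15 higher in exposed mice (unadjusted p = 0.00199, limma adjusted p = 0.232) and Gadd45b 0.65 ± 0.31 higher (adjusted p = 0.495). In the reference dye Trp53inp1 differed by 0.15 ± 0.07 (unadjusted p = 0.0360, adjusted p = 0.876) and Gadd45b by 0.0014 ± 0.13. The second Trp53inp1 probe gave 0.32 ± 0.16 in the liver dye (unadjusted p = 0.0470, limma adjusted p = 0.506) and -0.03 ± 0.07 in the reference dye. Bax differed by 0.05 ± 0.05 in the liver dye (adjusted p = 0.784) and by -0.05 ± 0.04 in the reference dye (adjusted p = 0.900). By their first probes, Ccng1, Gadd45a, Btg2, Mdm2 and Sesn2 had the other sign in the liver dye than in the ratio. Over all tested probes the reference dye gave 0 calls in limma (0%), with 1288 probes at an unadjusted p under 0.05, and 0 calls also when the background was left uncorrected or the slide was left out of the fit (1570 and 1056 probes at an unadjusted p under 0.05).

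The runs were compared next. On a slide, each group's positions form a pair. All 4 mice of exposed run 1 and all 6 of control run 1 lay on the first position of the pair, all 5 of exposed run 3 and all 5 of control run 3 on the second, and runs 2 on both (2 and 3 mice in either group). Run and position are thus largely confounded, and with position as a term the probes called among the exposed runs numbered 164, against 976 without it. Among the 3 exposed runs, none of the 10 members passed the moderated F test of limma, where 4.13% of probes and 5.2% of named genes were called. An unadjusted p under 0.05 was reached by 2 members, Gadd45a and Trp53inp1, against 22.5% of named genes. Among the 3 control runs none passed either (0.089% of probes and 0.106% of named genes called), and Gadd45a had an unadjusted p under 0.05 (1 of 10, against 7.62% of named genes).

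Gadd45a had the smallest F test p of the members, among exposed and among control runs. In exposed run 1 its values were -1.03, -0.75, -1.34 and -0.80, in exposed run 2 they were -1.28, -1.30, -1.97, -1.62 and -1.95, and in exposed run 3 they were -1.23, -1.26, -0.88, -1.24 and -1.34. Exposed run 2 lay lowest, and its highest value (-1.28) fell among those of run 3. Control run 1 ranged over -1.25, -1.09 and -0.85 (lowest, median and highest of 6). Control run 2 held -1.47, -1.77, -1.33, -1.49 and -1.10, and control run 3 held -0.57, -1.73, -1.97, -1.70 and -1.74. In control run 3, mouse 595 thus stood far above the other 4. The F test gave unadjusted p = 0.0110 among exposed runs (limma adjusted p = 0.121) and 0.0451 among control runs (adjusted p = 0.703). Relative to the averaged control runs, Gadd45a stood at 0.34 ± 0.16 in exposed run 1 (adjusted p = 0.253), at -0.28 ± 0.15 in run 2 (adjusted p = 0.527) and at 0.17 ± 0.15 in run 3 (adjusted p = 0.670). Leaving out control mouse 595 brought the exposed-run F test to an adjusted p of 0.0202 and exposed run 1 to 0.44 ± 0.12 (adjusted p = 0.0295). These were the only member calls among 2824 recomputed values, and both rest on that mouse.

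Trp53inp1 was lowest in run 1 of either group. Its values were 1.33, 1.06, 1.11 and 1.40 in exposed run 1, then 1.44, 1.41, 1.80, 1.69 and 2.14 in run 2 and 1.48, 1.59, 2.02, 1.79 and 2.06 in run 3. By this probe, every liver of exposed runs 2 and 3 exceeded every liver of exposed run 1, whose arrays all lay on the first position of the pair. By the second probe the runs overlapped. It ranged from 1.28 to 1.94 in exposed run 1, 1.62 to 2.71 in run 2 and 1.69 to 2.70 in run 3. Its F test among exposed runs gave unadjusted p = 0.100 (limma adjusted p = 0.363). How many other genes separate the runs was not counted. The values that follow are again of the first probe. Control run 1 ranged over 0.68, 0.94 and 1.42 (lowest, median and highest of 6). Control run 2 held 2.29, 1.14, 2.08, 0.63 and 1.21, and control run 3 held 1.73, 1.29, 1.35, 0.76 and 1.46, with wide overlap. The F test gave unadjusted p = 0.04999 among exposed runs (limma adjusted p = 0.256) and 0.0549 among control runs (adjusted p = 0.723). Relative to the averaged control runs, the difference was -0.04 ± 0.19 in exposed run 1 (adjusted p = 0.948), 0.41 ± 0.18 in run 2 (adjusted p = 0.412) and 0.53 ± 0.18, or 1.45-fold, in run 3 (unadjusted p = 0.00520, adjusted p = 0.192). With position as a term, the run 1 difference was 0.19 (adjusted p = 0.786). Under the 48 alternatives the run 3 difference lay between 0.32 and 0.83, without passing (smallest adjusted p = 0.0769).

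Cdkn1a was tight in exposed run 2, at -1.78, -1.78, -1.68, -1.62 and -1.57. In exposed run 1 it was -1.15, -2.51, -2.64 and -2.28 and in exposed run 3 it was -2.33, -2.36, -2.50, -2.43 and -1.61. Mice 176 and 216 stood above the rest of their runs. Control run 1 ranged over -2.65, -2.19 and -1.998, control run 2 held -1.49, -2.55, -0.10, -2.29 and -1.84, and control run 3 held -2.38, -2.25, -2.07, -2.07 and -1.38. The F tests gave limma adjusted p = 0.493 among exposed runs and 0.800 among control runs.

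Gadd45b was spread within every run. Exposed run 1 held 0.53, -0.80, -2.84 and -0.82, run 2 held -1.22, -0.37, -1.20, -0.46 and -1.25, and run 3 held -1.44, -0.97, -0.81, -0.68 and 0.10. Control run 1 ranged over -2.66, -2.10 and -0.12, control run 2 held -0.76, -1.81, 0.29, -2.65 and -1.04, and control run 3 held -1.14, -1.03, -1.53, -2.39 and -1.27. Mouse 179 was the single exposed liver below -2, whereas control runs 1, 2 and 3 each held at least 1 such liver. The 3 exposed runs stood 0.57 ± 0.46, 0.47 ± 0.42 and 0.79 ± 0.42 above the mean of the control runs (limma adjusted p = 0.559, 0.712 and 0.426). The run 1 value rested on single livers: it was 0.047 without mouse 176 (adjusted p = 0.978) and 1.21 without mouse 179 (adjusted p = 0.137).

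**Figure D3:**
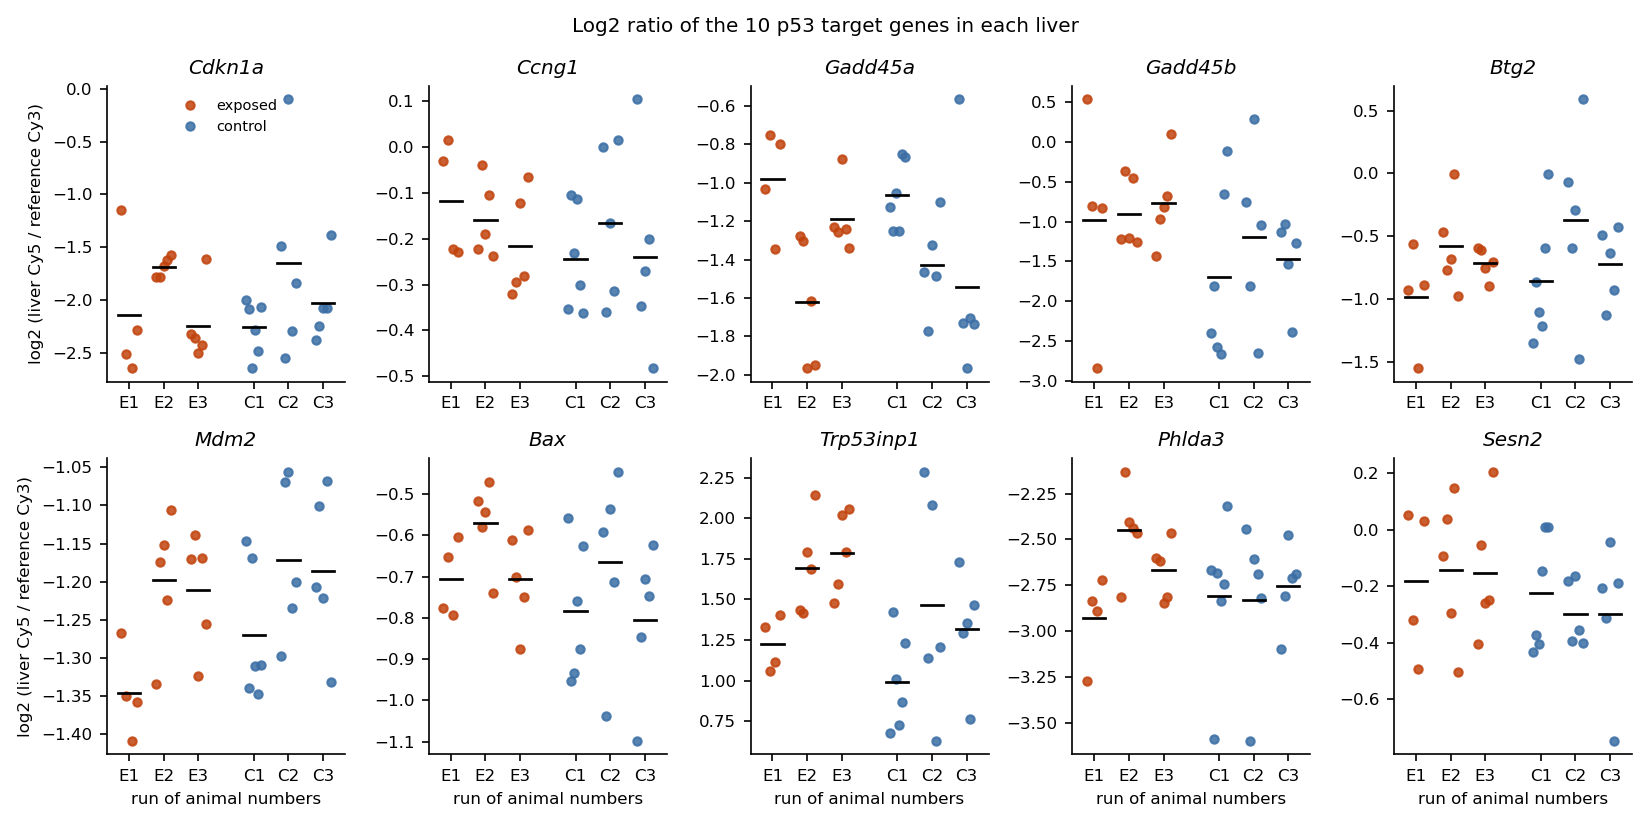
Log2 ratio of each p53 target in each liver (points), by run of animal numbers, with the run mean as a bar; E1 to E3 are exposed runs (orange-red) and C1 to C3 control runs (blue), and each panel has its own y axis. Gadd45a is lowest in E2 among the exposed runs, and 1 control liver of C2 stands at -0.10 for Cdkn1a. For Trp53inp1 all livers of E2 and E3 exceed those of E1 by the probe shown, but not by its second probe.

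In exposed run 1, none of the 10 members passed against the mean of the control runs, where 4.8% of probes and 6.08% of named genes were called, and 2 had an unadjusted p under 0.05 (22.1% of named genes). Besides Gadd45a this was Mdm2, at -0.14 ± 0.06 (limma adjusted p = 0.159), whose values there were -1.27, -1.35, -1.41 and -1.36. The second Mdm2 probe gave 0.08 ± 0.06 there (adjusted p = 0.581). In exposed run 2, none of 10 passed (0.0169% of probes and 0.00818% of named genes called) and 3 had an unadjusted p under 0.05 (10.6% of named genes). These were Trp53inp1, Bax at 0.16 ± 0.08 (adjusted p = 0.465) and Phlda3 at 0.30 ± 0.14 (adjusted p = 0.466). In exposed run 3, none of 10 passed (0.131% of probes and 0.139% of named genes called) and Trp53inp1 alone had an unadjusted p under 0.05 (13.3% of named genes). The 3 exposed runs share the same control mice in these comparisons.

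The members differed widely in how much livers of the same run varied. The residual SD of the run means fit was 0.94 for Gadd45b, 0.53 for Cdkn1a, 0.45 for Btg2, 0.39 for Trp53inp1, 0.33 for Gadd45a, 0.31 for Phlda3, 0.22 for Sesn2, 0.15 for Bax, 0.15 for Ccng1 and 0.090 for Mdm2, against a median of 0.18 over all tested probes. Ranked by this SD among the tested probes, Gadd45b lay at percentile 99.9 and Mdm2 at percentile 1.02. Cdkn1a (percentile 98.0) and Btg2 (96.2) also lay near the top, and Bax (32.8) and Ccng1 (30.7) below the median. For the 3 member probes printed in 10 spots, the median SD between spots of an array was 0.083 for Cdkn1a, 0.066 for Bax and 0.094 for the second Mdm2 probe, whose residual SD between livers was 0.110. An SD between single spots and an SD between livers of values averaged over spots are different quantities and were not compared.

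**Figure D4:**
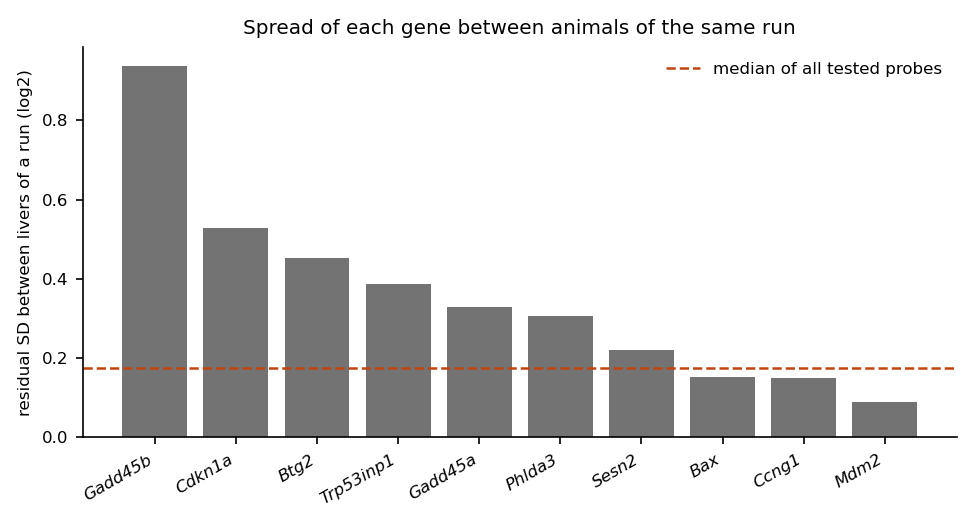
Residual SD between livers of the same run for each p53 target (bars, log2 units), in falling order, with the median of all tested probes as a dashed line at 0.18. Gadd45b (0.94) is the highest and Mdm2 (0.090) the lowest.

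Probes of one gene agreed where the gene varied. Across the 30 livers the 2 Trp53inp1 probes correlated at r = 0.93, the 2 Gadd45b probes at 0.90 and the 3 Btg2 probes at 0.82 to 0.96. The 2 Ccng1 probes reached 0.34 and the 2 Mdm2 probes 0.17, and these are also the genes whose probes gave differences of opposite sign.

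Of the 45 pairs of members, 35 had a correlation above 0 across the 30 livers, with a median r of 0.23. After Benjamini-Hochberg adjustment over the 45 pairs, 7 passed by Pearson's r and 6 by Spearman's rho (permutation tests, 100000 resamples), 5 by both, and 4 of these also after the run means had been removed. The 4 were Gadd45b with Sesn2, Bax with Phlda3, Gadd45b with Trp53inp1 and Gadd45b with Btg2. The same counts were not made over other gene pairs, so no background stands beside them. Ranked by r with Gadd45b among 11603 genes, Sesn2 stood at 10, Trp53inp1 at 32 and Btg2 at 58. In the other direction Gadd45b ranked 4 for Sesn2, 32 for Trp53inp1 and 167 for Btg2. Phlda3 ranked 126 for Bax, and Bax ranked 414 for Phlda3. Gadd45b and Sesn2 gave r = 0.68 and rho = 0.70 (both permutation adjusted p = 0.00180), r = 0.63 without the 2 most extreme livers, and r = 0.75 within exposed and 0.58 within control livers. Bax and Phlda3 gave r = 0.65 and rho = 0.61 (permutation adjusted p = 0.00180 and 0.00600), r = 0.53 without the 2 extremes, and r = 0.38 with slide means removed. Gadd45b and Trp53inp1 gave r = 0.60 and rho = 0.50 (permutation adjusted p = 0.00825 and 0.0436), with r = 0.24 within exposed and 0.70 within control livers. Gadd45b and Btg2 gave r = 0.56 and rho = 0.50 (permutation adjusted p = 0.0116 and 0.0436), with r = 0.44 within exposed and 0.72 within control livers. Cdkn1a correlated with Bax at r = 0.53 and rho = 0.64 (permutation adjusted p = 0.0196 and 0.00540), but at an adjusted p of 0.172 once run means were removed. Cdkn1a with Gadd45b (r = 0.54) and with Trp53inp1 (r = 0.47) passed by Pearson's r only, and the first was 0.36 without the 2 extreme livers. The pair of Cdkn1a and Mdm2 did not pass by either measure.

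**Figure D5:**
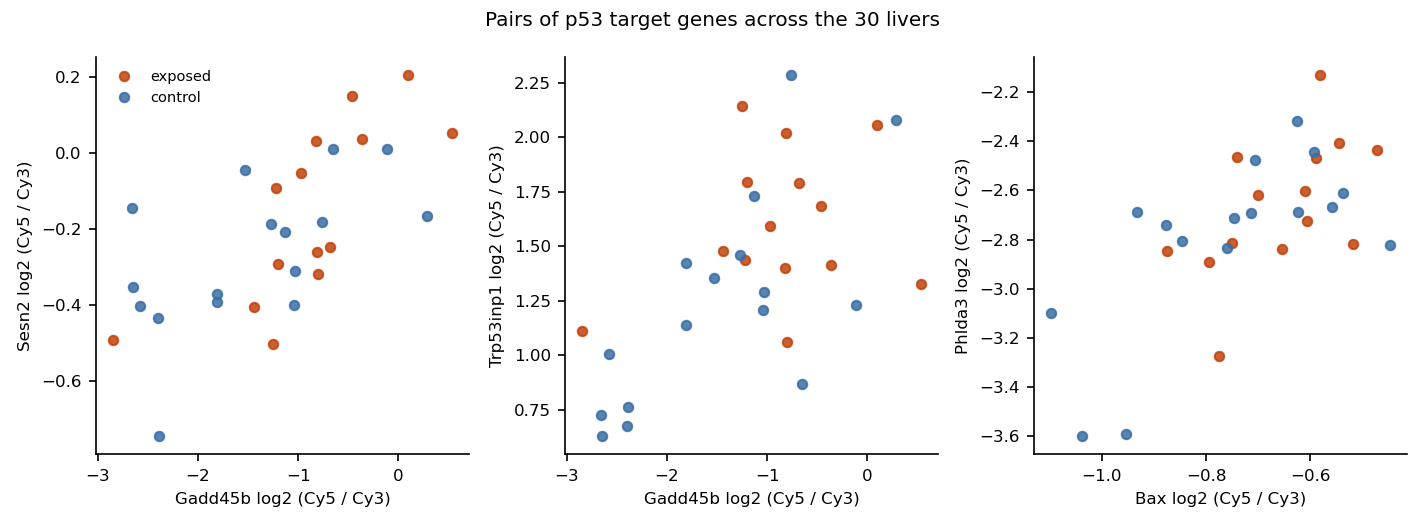
Log2 ratios of 3 pairs of p53 targets in each of the 30 livers, exposed in orange-red and control in blue. Gadd45b rises with Sesn2 (r = 0.68) and with Trp53inp1 (r = 0.60), Bax with Phlda3 (r = 0.65), and the 2 groups overlap in all 3 panels.

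Array quality moved with some of these genes. In a check added after the values were seen, 30 relations of the 10 genes with median Cy5, median Cy3 and the share of probes above background were computed. Phlda3 rose with the median Cy3 signal of the array (r = 0.59, rho = 0.67, permutation adjusted p = 0.0151 and 0.00300; r = 0.67 without the 2 extremes and 0.50 with slide means removed). It also rose with the share of probes above background (r = 0.59, rho = 0.53, permutation adjusted p = 0.0151 and 0.0387), at 0.20 with slide means removed. Bax gave a similar relation with the median Cy3 signal (r = 0.51, permutation adjusted p = 0.0426; rho = 0.49, adjusted p = 0.0581). Their part in the correlation of Bax with Phlda3 was not tested. Btg2 gave r = 0.49 with the median Cy5 signal (permutation adjusted p = 0.0458), but rho = 0.27 (adjusted p = 0.326).

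The genes most like each member were ranked by Pearson's r over the 30 livers among 11603 genes, as a description without a test. For Cdkn1a these were Skil (0.80), Nrbf2, Tcim, Snhg3 and Gpr65 (0.73). The ranking was extended to the other members after the Cdkn1a list had been seen. Gadd45b was closest to Jun (0.80), an immediate early transcription factor, to Nfkbia (0.80), the inhibitor of NF-kB, and to Rgs1, Pim3 and Gdf15 (0.71). Nfkbia (0.81), Frmd4b, Rgs1, Tob2 and Il1b (0.69) led for Trp53inp1, so Nfkbia and Rgs1 stood on both lists. Btg2 was closest to the immediate early gene Nr4a1 (0.76), then Mc1r, Fos, Zfp36 and Rab25 (0.74). For Sesn2 the list was 2810408A11Rik (0.72), Map6, Osr1, Gadd45b (0.68) and Lhfpl4. The genes nearest to Phlda3 were Ercc1 (0.88), a subunit of a repair nuclease, and Thy1, Fbln2, Tspan17 and Trip6 (0.86), and those nearest to Bax were Srsf9 (0.83), Ssr2, Ltb, Dazap1 and Nup50. Gadd45a, Mdm2 and Ccng1 had weaker leaders in Pla2g12a (0.70), Armcx1 (0.69) and Trim45 (0.54). These correlations share the arrays and their quality, and no other member led the list of Cdkn1a.

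The rest of the pathway was read from gene lists chosen with earlier results of these data known. None of 14 tested p53 regulators, 27 other p53 targets, 15 family relatives of the members or 18 strand break repair genes passed in the comparison of all exposed with all control livers, and their unadjusted p fell under 0.05 for 4, 4, 3 and 4 genes, against 12.3% of all named genes. The medians of the differences were -0.0048, -0.04, -0.03 and 0.03, against -0.00076 over all named genes. Trp53 itself, the gene of p53, averaged 0.25 ± 0.17 in exposed livers and 0.28 ± 0.15 in control livers (SD, n = 14 and 16), a difference of -0.02 ± 0.05 (limma adjusted p = 0.944). Lists of other inputs also had no call: 15 glucocorticoid targets (median 0.20, 11 above 0), 17 clock genes (median 0.32, 12 above 0), 17 ATF4 targets (median 0.05, 13 above 0) and 13 NF-kB and acute phase genes (median -0.06, 5 above 0). Over all named genes 49.6% lay above 0. Unadjusted p fell under 0.05 for 7, 11, 3 and 2 genes of these lists, against 12.3% of all named genes.

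In exposed run 1, 2 genes of the p53 lists fell relative to the averaged control runs. Daxx, whose product is a nuclear partner of Mdm2 and p53, averaged -0.78 in exposed run 1, against -0.41, -0.35 and -0.37 in control runs 1, 2 and 3, a difference of -0.39 ± 0.08 (0.764-fold; limma adjusted p = 0.00317). Gadd45gip1, whose product binds Gadd45 proteins, differed by -0.32 ± 0.09 (0.802-fold; adjusted p = 0.0325). These were 1 of 14 regulators and 1 of 15 relatives, at a background of 6.08% of named genes. Among the 3 exposed runs the F test called Daxx (adjusted p = 0.0309), the third Gadd45 gene Gadd45g (0.0481) and the repair genes Xrcc1 (0.0161) and Nbn (0.0182), that is 1 of 14 regulators, 1 of 15 relatives and 2 of 18 repair genes at 5.2% of named genes. Gadd45g averaged 0.31, 0.88 and -1.20 in exposed runs 1, 2 and 3, against -0.95, -0.65 and -0.71 in control runs 1, 2 and 3. Its mean was lowest in exposed run 3. With slide as a fixed block none of the 4 genes passed the F test (adjusted p from 0.114 to 0.195), nor with scan day as one (0.0681 to 0.125) or under median centring (0.112 to 0.99975). With position as a term the F test lost Daxx (0.162), Xrcc1 (0.0619) and Nbn (0.232). The processed Agilent signals and the series value table each lost Daxx (0.123 and 0.0514) and Nbn (0.0740 and 0.0775), the mean over all probes of a gene lost Nbn (0.192), and no filter on dim probes lost Gadd45g (0.0745). Without the 5 arrays of the other software version the F test lost Daxx (0.0866), Gadd45g (0.0561) and Nbn (0.0732). Gadd45gip1 did not pass in run 1 with slide (adjusted p = 0.127) or scan day (0.0646) as a fixed block, with position as a term (0.179), with the processed signals (0.0569), as a mean over its probes (-0.13, adjusted p = 0.222) or against control run 3 alone (0.0848). Against control run 1 alone, neither Daxx (-0.35, adjusted p = 0.0789) nor Gadd45gip1 (-0.25, adjusted p = 0.313) passed. Under median centring in place of loess, neither Daxx (-0.18, adjusted p = 0.891) nor Gadd45gip1 (-0.05, adjusted p = 0.978) passed in run 1. Without mouse 176 the F test lost Daxx (adjusted p = 0.162) and Nbn (0.0829), and Gadd45gip1 in run 1 stood at -0.21 (adjusted p = 0.257). The call of Gadd45g was lost in 18 of 30 fits that left out 1 mouse (adjusted p from 0.0206 to 0.117), and that of Xrcc1 without mouse 193 (0.0523). No other p53 target of the list passed in either comparison. Of the lists of other inputs, 2 of 17 clock genes and 2 of 13 NF-kB and acute phase genes were called in exposed run 1. The background there was 6.08% of named genes. Per3 (0.61 ± 0.15) and Tef (1.06 ± 0.27) stood above the averaged control runs (limma adjusted p = 0.0178 and 0.0232). So did Lcn2 (3.02 ± 0.38) and Saa3 (2.95 ± 0.48; adjusted p = 4.35e-05 and 0.000540). The NF-kB and acute phase list averaged -0.54 in exposed run 1, against -0.75, -0.997 and -1.15 in control runs 1, 2 and 3. For the clock list these means were 0.67, against 0.42, 0.34 and 0.25. The F test called Cry2, Nr1d1, Lcn2, Saa3 and Nfkbiz among the exposed runs. That is 2 of 17 clock genes and 3 of 13 NF-kB and acute phase genes, against 5.2% of named genes. No alternatives are given for these genes.

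Markers of other cells were read beside these values. The tested neutrophil markers (3 of 7 on the array) averaged 1.17 ± 0.20 in exposed and 0.94 ± 0.29 in control livers, ranging from 0.86 to 1.48 and from 0.47 to 1.40, and none of the 3 passed. Kupffer cell markers (7 tested) averaged 3.28 ± 0.28 in exposed and 3.40 ± 0.40 in control livers, again with no call. Bile duct markers averaged -2.55 ± 0.16 in exposed and -2.37 ± 0.16 in control livers, ranging from -2.83 to -2.26 and from -2.59 to -2.05, with 0 of 5 differences above 0 and a smallest adjusted p of 0.0651. B cell markers averaged -1.76 ± 0.15 in exposed and -1.60 ± 0.19 in control livers, ranging from -2.02 to -1.51 and from -1.83 to -1.28, with 0 of 3 above 0 (smallest adjusted p = 0.243). Differences above 0 numbered 1 of 6 for hepatocyte, 1 of 7 for Kupffer cell, 2 of 3 for neutrophil, 1 of 4 for T and NK cell, 4 of 5 for endothelial and 5 of 6 for stellate cell markers, with no call in any list. In exposed run 1, 1 of 6 hepatocyte, 1 of 5 bile duct and 1 of 6 stellate cell markers were called, each downward. Across named genes 6.08% were called there, 556 lower and 187 higher. The bile duct call was Spp1 (-0.59 ± 0.17) and the stellate cell call Pdgfrb (-0.44 ± 0.11; limma adjusted p = 0.0462 and 0.0212). Differences above 0 in run 1 numbered 3 of 6 for hepatocyte, 0 of 5 for bile duct and 3 of 6 for stellate cell markers. No alternatives are given for these calls. The part of cell makeup in the values of the p53 targets was not tested.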

How the data were processed

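Scanner files of 30 2-colour Agilent arrays and the series' value table were used. Per the file headers, Agilent Feature Extraction 10.7.3.1 (25 arrays) or 10.1.1.1 (5 arrays) gave the deposited median spot and background intensities. The same software gave the deposited log10 ratios, which served only to match the value table to the arrays. The deposited value table holds the authors' log2 ratios of Cy5 over Cy3. Each of its 30 columns matched the deposited ratios of its own array best (r 0.982 to 0.993, slopes 0.916 to 0.961). This match used 7572 spots with mean signals above 500 in both dyes. The column medians over probes were -0.044 to -0.019, and the centring method of the table is not given in the sources used here.

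Median signals were background corrected (normexp, offset 50) and loess normalized within arrays, with control spots at weight 0. Outlier spots were left out, which emptied 1008 probe values, and spots of a probe were averaged. Probes well above the Cy5 background on at least 14 of 30 arrays were tested with limma 3.58.1 (R 4.3.3), with slide as a random block (correlation 0.159, 0.147 with runs) and Benjamini-Hochberg adjustment at 0.05. Of all probes, 24526 were named by accession through the RefSeq table (GRCm38.p6), and 6461 tested probes had no name. Runs were split where animal numbers were more than 10 apart. Exact and resampling permutation tests were run in Python 3.11.15 with numpy 2.4.6, and ranks and Spearman's rho came from scipy 1.17.1. In simulated data for exposed against control livers (22739 probes), the fit recovered 95 of 100 probes given a log2 difference of 0.5 and 100 of 100 given 1, with 9 false calls. The changed probes were drawn at random and kept their spread within runs, without differences between runs. Residual SD ran from 0.090 (Mdm2) to 0.94 (Gadd45b) among the members, against a median of 0.18 over tested probes. The simulated counts thus give no recovery rate for the members.

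The members and gene lists were chosen with earlier results of these data known. Named were the members, up to 4 genes per list and comparison with the smallest p among those passing, and the 5 genes most like Cdkn1a. Outside this rule, Trp53 and the genes most like the other members were named after values had been seen. A hepatocyte marker that passed is counted but not reported here by name. Alternatives covered background, normalization, filters, slide, scan day, position, weights, software version, control runs and each mouse in turn.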

Additional observations from a re-analysis of the deposited data

Results flagged for a closer look

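In 3 of the 60 sets of mice tested for an outlying liver (each of the 10 genes in each of the 6 runs), the highest or lowest liver stood apart by Dixon's criterion, and chance at 5% gives 3. Cdkn1a stood at -1.61 in exposed mouse 216 of run 3, against -2.50 to -2.33 in the other 4 mice of the run. Gadd45a stood at -0.88 in exposed mouse 214 of run 3, against -1.34 to -1.23 in the other 4. Gadd45a stood at -0.57 in control mouse 595 of run 3, against -1.97 to -1.70 in the other 4, and the calls of Gadd45a among the exposed runs and in exposed run 1 were made only without that mouse.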

How the results depend on the processing

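The 2824 recomputed values of the members include F test results, which have no direction and could not change sign. They also include the Aquantile setting, which leaves the log ratios as they are. Of these values 2720 kept their side of the threshold and, where they were differences, their direction. Another 102, all differences that had not passed, took the other sign, and 2 passed, both of Gadd45a without control mouse 595. No member passed in any alternative of the comparison of all mice, among control runs, in run 2 or in run 3. Counts of probes past the threshold are 4 (all exposed), 976 (among exposed runs), 21 (among control runs), 1132 (run 1), 4 (run 2) and 31 (run 3), and moved by over 1.5 times as follows. They became 65 (all exposed) with 6 run means, and 17 (all exposed), 1789 (run 1), 20 (run 3) with no background correction, and 1983 (run 1), 0 (run 2), 3 (run 3) with the processed Agilent signals, and 0 (all exposed), 125 (among exposed runs), 4 (among control runs), 174 (run 1), 2 (run 2), 1 (run 3) with median centring. They stood at 17 (all exposed), 2 (run 2) with the series value table, and 15 (run 3) with no filter on dim probes, and 0 (run 2) with probes above background on all arrays, and 2 (all exposed), 167 (among exposed runs), 3 (among control runs), 427 (run 1), 0 (run 2), 0 (run 3) with slide as a fixed block. Counts were 4 (run 3) with no slide block, and 0 (all exposed), 343 (among exposed runs), 11 (among control runs), 635 (run 1), 1 (run 2), 0 (run 3) with scan day as a fixed block, and 164 (among exposed runs), 12 (among control runs), 288 (run 1), 0 (run 3) with position in the pair as a term, and 143 (all exposed), 1567 (among exposed runs), 93 (run 2), 520 (run 3) with array weights. Further counts were 2 (all exposed), 391 (among exposed runs), 1 (run 2), 0 (run 3) without the 5 arrays of the other software version, and 15 (run 3) with the mean over all tested probes of a gene, and 37 (all exposed) without the animals of exposed run 1, and 36 (all exposed) without the animals of exposed run 2. They became 58 (run 1), 153 (run 2) against control run 1 alone, and 0 (run 2) against control run 2 alone, and 1 (run 2), 2 (run 3) against control run 3 alone. Leaving out 1 mouse at a time, with the slide correlation of the full fit, gave 2 (without 195) to 106 (without control 573) for all exposed, 399 (without 176) to 1178 among exposed runs, 10 (without control 596) to 23 among control runs, 481 (without 177) to 1407 in run 1, 0 (without 195) to 67 (without control 573) in run 2 and 0 (without 213 or 215) to 133 (without 216) in run 3, and 0 to 1 members. In run 1 the higher and lower calls were 378 and 754, against 794 and 995 with no background correction, 979 and 1004 with processed signals, 128 and 46 with median centring and 820 and 827 in the value table. Member differences of the other sign, none of which passed, were as follows. These were Btg2 0.00999 (run 3), Mdm2 0.0040 (run 3) with no background correction, and Cdkn1a 0.034 (all exposed), Trp53inp1 0.027 (run 1), Btg2 0.032 (run 3), Mdm2 0.0042 (run 3) with the processed Agilent signals, and Trp53inp1 0.18 (run 1), Phlda3 0.17 (run 1), Mdm2 -0.024 (run 2) with median centring, and Trp53inp1 0.013 (run 1), Mdm2 -0.013 (run 2) with the series value table. They also were Btg2 0.0063 (all exposed), Btg2 -0.018 (run 2), Btg2 0.14 (run 3) with slide as a fixed block, and Bax -0.0080 (run 1), Btg2 -0.0091 (run 2), Mdm2 0.011 (run 3) with scan day as a fixed block, and Cdkn1a 0.16 (run 1), Btg2 0.087 (run 1), Trp53inp1 0.19 (run 1), Mdm2 0.031 (run 3), Bax -0.065 (run 3) with position in the pair as a term, and Btg2 0.030 (all exposed), Mdm2 0.0013 (run 3) with array weights. Others were Btg2 0.053 (all exposed), Trp53inp1 0.037 (run 1), Mdm2 -0.043 (run 2), Ccng1 0.0089 (run 3), Btg2 0.095 (run 3) without the 5 arrays of the other software version, and Ccng1 -0.0068 (all exposed), Mdm2 0.0069 (all exposed), Ccng1 -0.027 (run 1), Mdm2 -0.0012 (run 2), Btg2 0.0042 (run 3), Mdm2 0.043 (run 3) with the mean over all tested probes of a gene, and Cdkn1a 0.021 (all exposed), Gadd45a -0.070 (all exposed), Btg2 0.042 (all exposed), Mdm2 0.0083 (all exposed) without the animals of exposed run 1, and Cdkn1a 0.071 (all exposed), Gadd45a -0.020 (all exposed) without the animals of exposed run 3. The rest were Cdkn1a 0.10 (run 1), Trp53inp1 0.25 (run 1), Cdkn1a 0.052 (run 3), Ccng1 0.026 (run 3), Gadd45a -0.089 (run 3), Btg2 0.24 (run 3), Mdm2 0.055 (run 3) against control run 1 alone, and Bax -0.024 (run 1), Cdkn1a -0.060 (run 2), Btg2 -0.21 (run 2), Mdm2 -0.025 (run 2), Bax -0.0083 (run 3) against control run 2 alone, and Mdm2 -0.0078 (run 2), Ccng1 0.019 (run 3), Btg2 0.0056 (run 3) against control run 3 alone. Leaving out 1 mouse gave ranges of -0.094 to 0.11 for Cdkn1a (all exposed), -0.0044 to 0.10 for Gadd45a (all exposed), -0.11 to 0.018 for Btg2 (all exposed), 0.020 to 0.27 for Gadd45a (among exposed runs, adjusted p), 0.25 to 0.50 for Gadd45a (run 1), -0.10 to 0.040 for Trp53inp1 (run 1), -0.16 to 0.024 for Phlda3 (run 1), 0.047 to 1.21 for Gadd45b (run 1), -0.059 to 0.13 for Btg2 (run 2), -0.0064 to 0.055 for Mdm2 (run 2), -0.051 to 0.022 for Ccng1 (run 3), -0.12 to 0.058 for Btg2 (run 3), -0.025 to 0.020 for Mdm2 (run 3). The cause was not tested. Aquantile between arrays leaves log ratios as they are. Animal numbers differ between the groups and pair no mice, so groups were matched only by slide, in the test within slides and in the fits with slide as a fixed block. No member passed in those fits.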
